A study of Homo sapiens with 6 samples.

Results

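The Mediator complex was followed at the level of its transcripts in HEK293T, an established cell line of human embryonic kidney origin. Members were the rows of the count table named MED and a number, with or without a final L, together with CDK8, CDK19 and CCNC. They came to 33 of the 63643 rows of the table. MGO libraries (3) came from cells exposed to 60 µM methylglyoxal, a reactive by-product of glycolysis, for 4 h, and Control libraries (3) from untreated cells. Both groups carry a deletion of GLO1, the glyoxalase that begins methylglyoxal clearance, per the labels. The sources used here do not say whether the deleted line is 1 clone. The study asked whether methylglyoxal changes transcription in the manner of the integrated stress response.

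Mediator is the large coactivator that carries signals from DNA-bound transcription factors to RNA polymerase II at promoters. Its head and middle modules contact the polymerase, its tail module is bound by many activators, and MED14 runs through the complex as a scaffold. A separable kinase module, built from cyclin C, CDK8 or its paralog CDK19, MED12 or MED12L and MED13 or MED13L, docks on the core and hinders its contact with the polymerase. The complex joins very large and very small proteins. MED27 to MED30 lie where head and tail meet, and different structures assign them to one or the other, so they are treated here as a junction group.

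Total counts per library lay between 117427883 and 157639431. All 7 marker genes listed for the HEK293T line, among them VIM and KRT18, averaged at least 1 CPM, that is, counts set against a library total scaled by the trimmed mean of M-values (TMM). Their summed level was 1926 to 2173 CPM in MGO and 863 to 919 CPM in Control libraries. VIM, KRT8 and KRT18 rose, and NEFL, NEFM, NES and PAX2 fell. Of 8 markers of other cell types, only EPCAM and COL1A1 averaged at least 1 CPM over all libraries, EPCAM at 155 ± 5.14 CPM in MGO and 100.3 ± 4.96 CPM in Control libraries and COL1A1 at 4.30 ± 0.444 CPM in MGO and 13.95 ± 0.625 CPM in Control libraries (SD, n = 3). The 8 summed to 157 to 166 CPM in MGO and 111 to 120.1 CPM in Control libraries, none of them at 0 in all 6, and their part in the results below was not tested. ALB, a liver marker, had 5.09 CPM in MGO replicate 1 and between 0.0346 and 0.10 CPM in the other 5 libraries. LYZ, also among the 8, had 0.673 CPM in MGO replicate 1 and between 0.0351 and 0.0960 CPM in the other 5. It was called raised (log2 fold change 2.56, SE 0.75, edgeR adjusted p = 0.00715). Without MGO replicate 1 the same numbers of Mediator members passed, 17 raised and 10 lowered. GLO1 had 97.3 to 106 CPM in MGO and 36.3 to 38.0 CPM in Control libraries. Since the labels give the deletion for every sample and do not name the part removed, neither the deletion nor the groups can be checked from GLO1.

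Mediator transcripts moved in both directions after MGO: most short ones rose and most long ones fell. Of the 30 members tested, 17 rose and 10 fell, while 3 stayed on the other side of the threshold, an adjusted p under 0.05 in edgeR's quasi-likelihood test with Benjamini-Hochberg adjustment over all 23109 genes tested. Among all genes tested, 38.8% rose, 40.5% fell and 79.3% passed in either direction, so a change as such was common in these libraries. The median log2 fold change was 0.49 over the members and -0.02 over all genes tested. At a log2 fold change of 1 or more, 10 members rose, a size reached by 20.9% of all genes, and 7 fell by as much, reached by 25.8%. MGO and Control libraries did not overlap for 27 of the 30, against 81.5% of all genes. Rises made up 63.0% of the members' calls and 48.9% of all calls. With libraries scaled by their size alone, 11 members rose and 15 fell, against 24.5% and 55.8% of all genes. Rises then made up 42.3% of the members' calls and 30.6% of all calls, and the median log2 fold change of all genes was -0.55. No spike-in RNA was listed, so every change is relative to the scaling. Each library began from 500 ng of RNA, so the counts show neither the number of cells nor the RNA per cell. The members' summed level was 2052 ± 9.85 CPM in MGO and 2200.0 ± 108 CPM in Control libraries (SD, n = 3). In GENCODE 29 more than 10% of the exon bases of 9 tested members (CCNC, MED4, MED6, MED11, MED12L, MED17, MED26, MED28 and MED31) overlap another gene, and their values are uncertain to that extent.

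**Figure D1:**
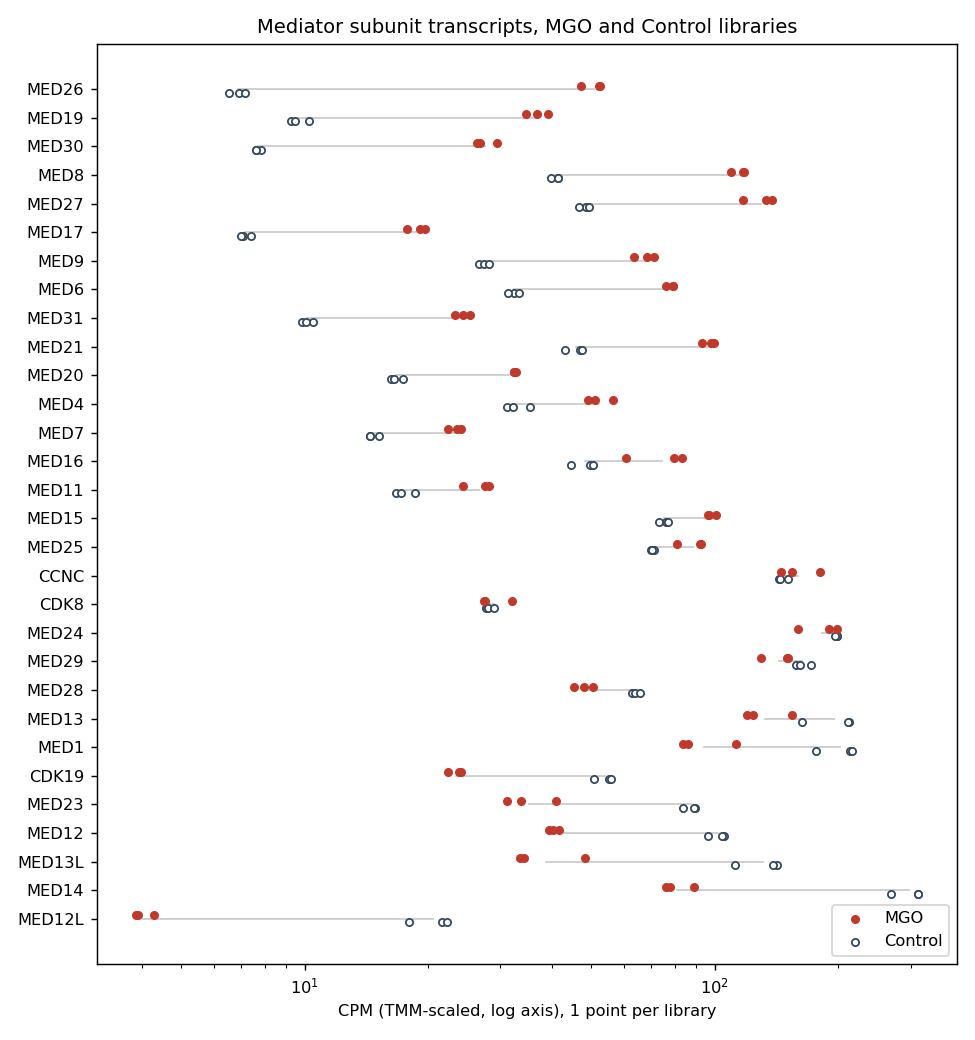
Level of each of the 30 tested Mediator transcripts in CPM on a log axis, 1 point per library, with MGO filled and Control open, ordered from the largest rise at the top to the largest fall at the bottom. MED26 at the top had 47.2 to 52.5 CPM in MGO and 6.53 to 7.15 CPM in Control libraries, and only CCNC, CDK8 and MED24 have overlapping groups.

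MED18, MED10 and MED22 were not tested, with 5, 1 and 1 counts over all 6 libraries. MED18 and MED22 are head subunits and MED10 belongs to the middle module. TFIIH genes that most cells use, GTF2H1 and GTF2H4, also had at most 1 count, so such counts do not show that a gene is silent.

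The head module, which joins the polymerase and the general factors, rose in all of its 5 tested members. Among all genes tested 38.8% rose. The module's median transcript length was 1483 nt, and 70.0% of coding genes of 1000 to 1500 nt rose. With each library's dependence on transcript length taken out, the module's median log2 fold change went from 1.27 to 0.85. MED11 did not pass there (0.07). MED8 (chromosome 1, 43383917 to 43389808, GRCh38) had 109.5, 118 and 117 CPM in MGO libraries, against 41.4, 39.7 and 41.4 CPM in Control libraries. The lowest MGO value was well over the highest Control value, and the log2 fold change was 1.49 (SE 0.06, edgeR adjusted p = 4.16e-10). MED17, the central subunit around which the head is built, had 19.7, 17.8 and 19.1 CPM in MGO libraries, against 7.40, 7.09 and 6.97 CPM in Control libraries (log2 fold change 1.40, SE 0.07, edgeR adjusted p = 2.55e-09). MED6, one of the most conserved subunits, rose by 1.27 (SE 0.06), and MED20, the partner of MED18 in a movable part of the head, by 0.96 (SE 0.06). The smallest head change was that of MED11, at 24.3, 28.1 and 27.5 CPM in MGO libraries, against 18.6, 16.7 and 17.2 CPM in Control libraries. Its log2 fold change of 0.61 (SE 0.08, edgeR adjusted p = 1.17e-05) did not pass under library size alone (0.08, adjusted p = 0.342).

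In the middle module 7 of 8 tested members rose and 1 fell. Its median transcript length was 1448.25 nt, and of coding genes of 1000 to 1500 nt 70.0% rose and 17.3% fell. MED26 (chromosome 19, 16574907 to 16629062), the subunit that brings elongation factors to Mediator, had the largest rise of all members. It stood at 47.2, 52.5 and 52.0 CPM in MGO libraries, against 6.93, 6.53 and 7.15 CPM in Control libraries. Every MGO library lay far above every Control library, with a log2 fold change of 2.88 (SE 0.07, edgeR adjusted p = 2.57e-11). MED19 (chromosome 11, 57703714 to 57712323), a small middle subunit, had 34.7, 39.2 and 36.8 CPM in MGO libraries, against 10.2, 9.26 and 9.48 CPM in Control libraries. Its log2 fold change was 1.93 (SE 0.07, edgeR adjusted p = 2.58e-10). Also raised were MED9 (1.31), MED31 (1.26), MED21 (1.08), MED4 (0.67) and MED7 (0.67), with SE between 0.06 and 0.07. MED7 and MED21 form the hinge of the module. MED4 and MED7 stood at 0.14 each under library size alone, where neither passed.

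MED1 (chromosome 17, 39404285 to 39451286), the subunit bound by nuclear hormone receptors, was the middle member that fell. It had 113, 85.8 and 83.5 CPM in MGO libraries, against 176.5, 213 and 216 CPM in Control libraries. The groups lay apart, although MGO replicate 1 was the highest of its group and Control replicate 1 the lowest of its own. The log2 fold change was -1.10 (SE 0.11, edgeR adjusted p = 1.72e-06). Its transcript of 4357 nt is the longest of the tested middle members, whose median is 1448.25 nt.

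RefSeq promoter windows (GRCh38.p14, 250 bases before to 50 after a start site) are shown for the 2 members with the largest rises, MED26 and MED19, and for MED12L, the member with the largest fall. Capitals mark the 5-letter box CCAAT read on either strand, known as a binding site of the factor NF-Y. The windows are chr19:16628155-16628454 (minus strand) for MED26, chr11:57712166-57712465 (minus strand) for MED19 and chr3:151085414-151085713 (plus strand) for MED12L.
MED26: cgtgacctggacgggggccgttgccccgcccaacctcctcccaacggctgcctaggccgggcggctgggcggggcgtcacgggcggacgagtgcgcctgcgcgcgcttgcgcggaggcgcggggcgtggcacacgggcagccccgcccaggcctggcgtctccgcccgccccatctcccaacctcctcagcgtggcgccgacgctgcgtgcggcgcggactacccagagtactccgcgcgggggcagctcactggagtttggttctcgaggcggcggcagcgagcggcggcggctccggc
MED19: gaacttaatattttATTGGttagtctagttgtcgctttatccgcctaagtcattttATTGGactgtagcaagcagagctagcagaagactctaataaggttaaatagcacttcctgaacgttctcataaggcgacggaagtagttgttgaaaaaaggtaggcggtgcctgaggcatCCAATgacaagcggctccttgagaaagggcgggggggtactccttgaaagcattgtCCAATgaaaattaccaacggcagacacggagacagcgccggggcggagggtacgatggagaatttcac
MED12L: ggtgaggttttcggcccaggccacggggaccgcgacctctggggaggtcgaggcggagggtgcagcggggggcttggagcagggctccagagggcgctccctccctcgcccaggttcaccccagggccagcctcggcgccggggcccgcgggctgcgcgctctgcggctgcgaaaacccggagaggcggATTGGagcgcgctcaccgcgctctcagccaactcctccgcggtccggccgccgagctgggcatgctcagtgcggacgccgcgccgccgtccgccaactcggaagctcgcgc
The MED19 window holds 4 such boxes, that of MED12L holds 1 and that of MED26 none. GC content is 77.3% in the MED26 window, 47.0% in that of MED19 and 75.3% in that of MED12L. RefSeq windows were used for 25 of the 33 members, and none was found for MED6, MED8, MED13, MED14, MED21, MED22 and MED28. MED30 was left out when windows were selected, so whether it has one was not tested. In all, 7 motifs were searched on both strands of the 30 member windows, some genes having several. CCAAT was in 11 of them, from 10 genes, against 34.6% of all 35116 windows of the table, which also include those of noncoding genes. The ETS motif CCGGAAGT was in 7, from 6 genes (4.14% of all), the YY1 motif AAGATGGC in 5 (2.89%) and the AP-1 motif TGANTCA in 3 (7.71%). The windows of MED7 overlap, so the same ETS site and the same CCAAT box are counted more than once. The cyclic AMP response motif TGACGTCA was in 1, that of MED18 (1.85% of all), as was the NRF1 core motif CGCATGCG (2.02%). The EGR motif GCGGGGGCG was in none (5.07%). The ETS windows belonged to raised members (MED7, MED11, MED15 and MED17), to MED29, which fell, and to MED18, which was not tested. A match says only that these letters are in the window.

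MED14 (chromosome X, 40648306 to 40735858), the scaffold of the complex, fell in MGO. It stood at 89.1, 76.2 and 77.9 CPM in MGO libraries, against 269, 313 and 312 CPM in Control libraries. Every MGO library lay far below every Control library, with a log2 fold change of -1.88 (SE 0.08, edgeR adjusted p = 7.35e-10).

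In the tail, the module that many activators bind, 3 of 5 members rose, 1 fell and 1 did not pass. Their log2 fold changes lay between -1.31 and 0.63. The tail's median transcript length was 3231 nt, and of coding genes of 3000 to 4000 nt 23.5% rose and 57.2% fell. MED16 had 60.8, 79.5 and 83.1 CPM in MGO libraries, against 44.6, 49.6 and 50.4 CPM in Control libraries (log2 fold change 0.63, SE 0.10, edgeR adjusted p = 0.000118). It stood at 0.10 under library size alone (adjusted p = 0.36). MED15, bound by sterol response factors, had 96.8, 96.4 and 100.6 CPM in MGO libraries, against 75.8, 76.9 and 73.0 CPM in Control libraries. Its groups lay apart, with a log2 fold change of 0.38 (SE 0.06, edgeR adjusted p = 6.39e-05) that turned to -0.15 under library size alone. MED25, bound by the viral activator VP16, rose by 0.33 (SE 0.07) but stood at -0.20 under library size alone. MED24 overlapped between the groups, at 159, 189.7 and 198 CPM in MGO libraries and 198.5, 198.5 and 196 CPM in Control libraries (log2 fold change -0.12, SE 0.08, edgeR adjusted p = 0.197). MED23 (chromosome 6, 131573966 to 131628229), through which the growth-signal factor ELK1 acts, was the tail member that fell. It had 40.9, 31.1 and 33.6 CPM in MGO libraries, against 83.5, 89.5 and 89.1 CPM in Control libraries. The log2 fold change was -1.31 (SE 0.09, edgeR adjusted p = 4.13e-08).

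The junction group split into 2 members that rose and 2 that fell. Among all genes tested 38.8% rose and 40.5% fell. The raised MED30 and MED27 have transcripts of 730.5 and 1281 nt, the lowered MED28 and MED29 of 10868 and 3027.5 nt. Once each library's dependence on transcript length was taken out, the group's median log2 fold change went from 0.62 to 1.12. MED28 then stood at 1.60 and MED29, not past the threshold, at 0.08. MED30 (chromosome 8, 117520713 to 117540262) had 26.7, 29.4 and 26.3 CPM in MGO libraries, against 7.59, 7.82 and 7.60 CPM in Control libraries. Its log2 fold change was 1.84 (SE 0.07, edgeR adjusted p = 2.88e-10). MED27 rose by 1.43 (SE 0.07) to 129 ± 10.9 CPM in MGO, against 48.1 ± 1.34 CPM in Control (SD, n = 3). MED28, known also for binding the cytoskeletal protein merlin, had 48.1, 50.5 and 45.4 CPM in MGO libraries, against 62.8, 64.0 and 65.5 CPM in Control libraries (log2 fold change -0.42, SE 0.06, edgeR adjusted p = 5.28e-05). MED29 had 129.5, 151 and 150.0 CPM in MGO libraries, against 157, 161 and 172 CPM in Control libraries. The gap between its groups was narrow, and its log2 fold change of -0.19 (SE 0.07, edgeR adjusted p = 0.032) did not pass when Control replicate 2 was left out (adjusted p = 0.0556), nor without Control replicate 3 (adjusted p = 0.13) or under upper quartile scaling (-0.01, adjusted p = 0.876).

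No tested member of the kinase module rose, while 5 of 7 fell and 2 did not pass. Of all genes tested 40.5% fell. The module's median transcript length was 6067 nt, and 85.2% of coding genes of 6000 to 8000 nt fell. With each library's dependence on transcript length taken out, the module's median log2 fold change went from -1.21 to 0.08. CCNC, the cyclin of the module, had 181, 154 and 145 CPM in MGO libraries and 151, 143 and 144 CPM in Control libraries. These groups overlapped (log2 fold change 0.13, SE 0.08, edgeR adjusted p = 0.153), and CCNC passed without MGO replicate 3 (0.20, edgeR adjusted p = 0.047). CDK8, the kinase, also overlapped, at 32.0, 27.5 and 27.4 CPM in MGO libraries and 27.6, 28.0 and 29 CPM in Control libraries (log2 fold change 0.04, SE 0.07, edgeR adjusted p = 0.639). Its value turned to -0.03 without MGO replicate 1. Both directions depend on the scaling, since CCNC and CDK8 passed at -0.39 and -0.48 under library size alone and at 0.30 and 0.21 under upper quartile scaling.

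CDK19 (chromosome 6, 110609978 to 110815958), the paralog of CDK8, had 24.0, 22.3 and 23.8 CPM in MGO libraries, against 50.7, 55.3 and 55.7 CPM in Control libraries. Its log2 fold change was -1.21 (SE 0.07, edgeR adjusted p = 4.51e-09). MED12, which activates the kinase, had 41.6, 39.5 and 40.3 CPM in MGO libraries, against 96.2, 105 and 104 CPM in Control libraries (log2 fold change -1.33, SE 0.06, edgeR adjusted p = 1.21e-09). Its paralog MED12L (chromosome 3, 151085697 to 151437072) fell most of all members, at 4.28, 3.88 and 3.93 CPM in MGO libraries, against 17.9, 21.6 and 22.3 CPM in Control libraries. The log2 fold change was -2.35 (SE 0.10, edgeR adjusted p = 4.15e-10). MGO and Control libraries lay far apart in all 3 genes.

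MED13, which ties the kinase module to the core, had 154.5, 119.9 and 124 CPM in MGO libraries, against 163, 212 and 211 CPM in Control libraries. The highest MGO library came close to the lowest Control library, and the log2 fold change was -0.56 (SE 0.11, edgeR adjusted p = 0.000686). MED13L (chromosome 12, 115953872 to 116277719) had 48.3, 33.5 and 34.2 CPM in MGO libraries, against 112, 141.5 and 138 CPM in Control libraries (log2 fold change -1.76, SE 0.13, edgeR adjusted p = 9.18e-08). In both genes the first replicates of MGO and Control lay nearest to the other group.

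Ratios of paralog counts within a library do not depend on how libraries are scaled, and were not corrected for transcript length. CDK19 counts over CDK8 counts were 0.749, 0.809 and 0.868 in MGO libraries, against 1.84, 1.98 and 1.92 in Control libraries, a difference in mean log2 ratio of -1.24. MED12L over MED12 was 0.103, 0.0981 and 0.0973 in MGO libraries, against 0.186, 0.205 and 0.214 in Control libraries (difference -1.02). MED13L over MED13 was 0.312, 0.280 and 0.276 in MGO libraries, against 0.689, 0.666 and 0.656 in Control libraries (difference -1.21). In all 3 pairs every MGO ratio lay under every Control ratio. The exact two-sided permutation test gave p = 0.1 for each, also after Benjamini-Hochberg adjustment over the 3 pairs, which is the smallest p that 3 against 3 libraries allow. In each pair the paralog with the lower log2 fold change spans the longer gene. Spans are 206 kb in CDK19 and 151 kb in CDK8, and 351 kb in MED12L and 23.9 kb in MED12. They are 324 kb in MED13L and 123 kb in MED13. Across coding genes the log2 fold change had a Spearman rho of -0.46 with gene span. A part of gene span in these ratios was not tested. Transcript lengths follow the same order in CDK19 and CDK8 (6067 and 3055 nt) and in MED13L and MED13 (11666 and 10465 nt). For MED12L and MED12 they are 4631.5 and 6827 nt, where the MED12L value is the median of 4 annotated transcripts of 2757 to 10744 nt. With each library's dependence on transcript length taken out, the log2 fold changes were 0.04 in CDK19 and 0.31 in CDK8, -1.50 in MED12L and 0.08 in MED12, and 0.34 in MED13L and 1.41 in MED13.

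**Figure D2:**
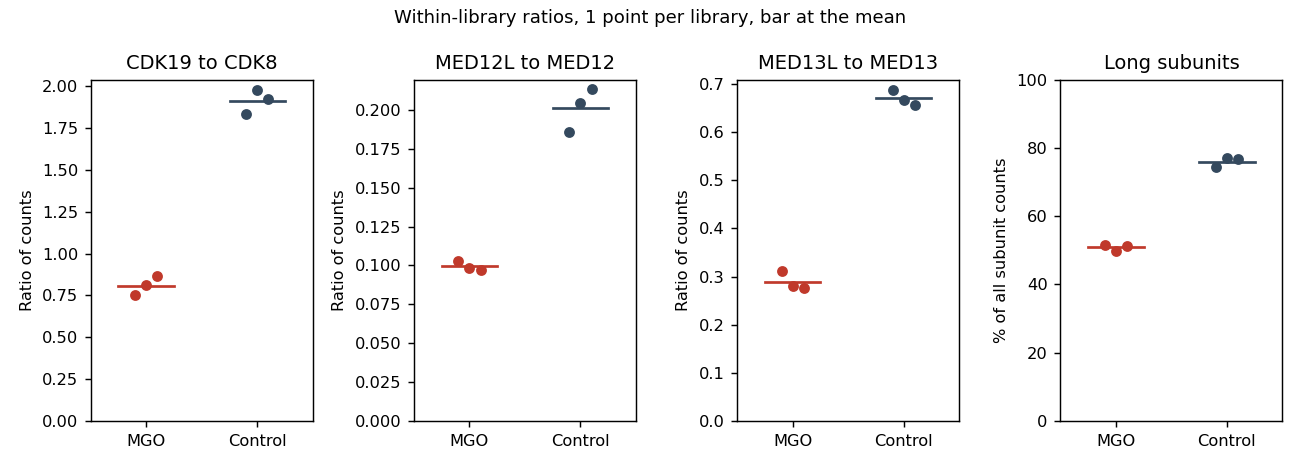
Ratio of counts of each paralog pair in each library, and percent of all Mediator counts that fell on long members (2313 nt or more), with MGO left of Control, 1 point per library and a bar at the mean. CDK19 over CDK8 lies at 0.749 to 0.868 in MGO and at 1.84 to 1.98 in Control libraries, and long members took 49.8 to 51.5% of Mediator counts in MGO and 74.3 to 77.0% in Control libraries.

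Long and short members of the complex moved apart. A gene's transcript length was taken as the median of its basic coding transcripts in GENCODE 29. The members were divided at their median of 2313 nt into 15 long and 15 short ones. MED17 (2317 nt) stands just above and MED26 (2309 nt) just below this value. Of the short members 14 rose, none fell and CCNC did not pass, with a median log2 fold change of 1.26. Among the long members 3 rose (MED15, MED16 and MED17), 10 fell and 2 did not pass, with a median of -0.56. The difference of the medians was -1.82 and stood between -1.81 and -1.82 under library size alone, RLE and upper quartile scaling, since a scaling factor shifts both medians alike. With each library's dependence on transcript length taken out it was -0.47. Long members took 50.9 ± 0.890% of all Mediator counts in MGO and 76.0 ± 1.48% in Control libraries (SD, n = 3). The kinase module took 20.9 ± 2.34% in MGO and 30.7 ± 0.837% in Control libraries.

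All protein-coding genes were divided in the same way. Those of at least 2313 nt (8286 genes) had a median log2 fold change of -0.58, with 22.4% raised and 61.5% lowered, and shorter ones (6422 genes) a median of 0.64, with 63.5% raised and 20.1% lowered. The medians of -0.56 in long and 1.26 in short Mediator members stand beside these. Over the 30 members the log2 fold change had a Spearman rho of -0.78 with transcript length, and over 14708 coding genes of -0.56. These are correlations across genes, which share libraries and are not independent replicates.

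**Figure D3:**
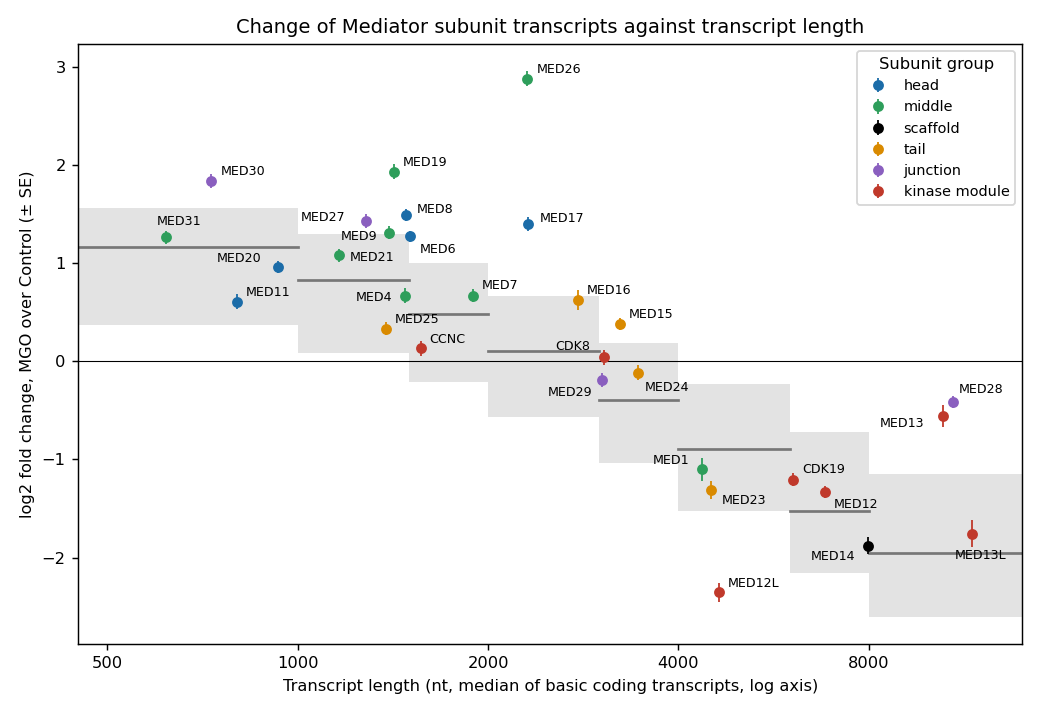
Log2 fold change, MGO over Control, with its SE (vertical) against transcript length in nt on a log axis (horizontal) for the 30 tested members, coloured by subunit group. Grey steps show the median (line) and the quartile range (band) of all tested protein-coding genes in 8 length ranges, from 1.16 below 1000 nt to -1.96 at 8000 nt or more; MED26, MED17, MED13 and MED28 are among those above the band, and MED12L, placed at its median transcript, lies below it.

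In MED28 and MED29, mRNA and protein differ in length class. MED28 has a coding part of 534 nt within a transcript of 10868 nt, and MED29 one of 631.5 nt within 3027.5 nt, so both are small proteins on long mRNAs, and both fell. MED25 and MED26 are above the median in coding length (1318.5 and 1038 nt) and below it in transcript length (1380 and 2309 nt), and both rose. These classes rest on median transcripts. MED25 has 8 of 642 to 2332 nt, MED26 has 2 of 1444 and 3174 nt, and MED29 has 4 of 1471 to 3653 nt. All 3 thus have transcripts on both sides of 2313 nt. Across the members rho was -0.62 with coding length, -0.38 with the length of the untranslated parts, -0.49 with gene span and -0.72 with the number of exons. Over coding genes these were -0.47, -0.33, -0.46 and -0.38. The members' rho with the mean Control CPM, which is also part of the fold change, was -0.72. With members divided at their median coding length of 931.5 nt, 12 of 15 small and 5 of 15 large ones rose, while 2 and 8 fell. Among all genes tested 38.8% rose and 40.5% fell. Coding genes as a whole were not divided by coding length. Divided by transcript length, 63.5% of the shorter and 22.4% of the longer ones rose, while 20.1% and 61.5% fell.

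Several members stood away from coding genes of like length, taken as those within 10% of the member's own. MED26 changed by 2.88, against a median of 0.19 over 1837 such genes. MED17, of nearly the same length, changed by 1.40, against 0.19 over 1827 genes, and MED19 by 1.93, against 0.71 over 1022 genes. On long mRNAs, MED28 changed by -0.42, against a median of -2.18 over 153 genes, and MED13 by -0.56, against -2.07 over 164 genes. MED28 is placed by its 1 basic coding transcript, of 10868 nt, and whether these cells use that form was not tested. FAM184B lies opposite 32.4% of the exon bases of MED28. MED12L was lower than its neighbours in length, at -2.35, against -0.82 over 1213 genes. That comparison rests on its median transcript: at the length of its longest, among coding genes of 8000 nt or more, the median was -1.96 and the lower quartile -2.60. MED14 differed little from them, at -1.88, against -1.81 over 352 genes, as did CDK19 at -1.21, against -1.26 over 782 genes.

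An edgeR fit with each library's dependence on transcript length taken out gave 20 raised and 6 lowered members, and 4 not past the threshold, where 39.9% of all genes were raised and 37.3% lowered. MED26 (2.83), MED19 (1.47), MED17 (1.35) and MED30 (1.32) still rose, and MED12L (-1.50), MED23 (-0.50), MED1 (-0.34) and MED14 (-0.26) still fell. The MED12L value again rests on its median transcript of 4631.5 nt, where its longest has 10744 nt. MED28 and MED13 changed sign and passed, at 1.60 and 1.41, and MED13L also changed sign, to 0.34. The MED28 value rests on its 1 basic coding transcript, of 10868 nt. MED11 (0.07), MED12 (0.08), MED29 (0.08) and CDK19 (0.04) were not past the threshold. CDK8 and MED24 passed at 0.31 and 0.32 in this fit, and CCNC at -0.27 and MED25 at -0.15. The median log2 fold change of all genes was 0.04 in this fit.

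**Figure D4:**
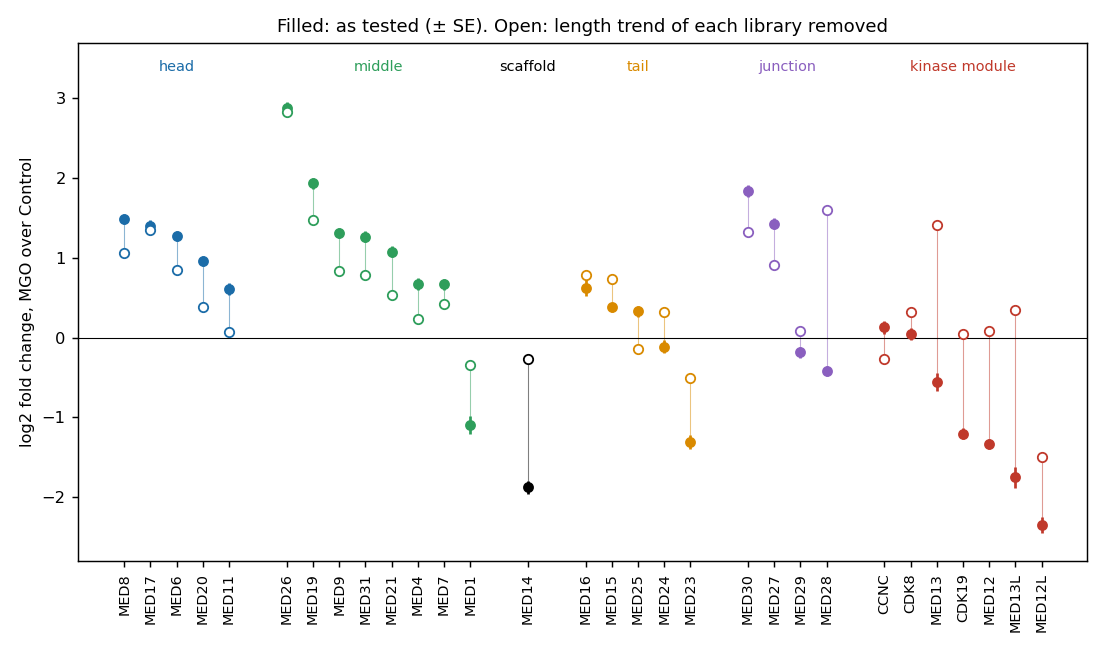
Log2 fold change, MGO over Control, of the 30 tested members by subunit group, as tested with SE (filled) and after removal of each library's trend on transcript length (open). Head members stay above 0 in both, and MED13 and MED28 move from -0.56 and -0.42 to 1.41 and 1.60. MED12L, taken at its median transcript, stays lowest at -2.35 and -1.50.

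Partners of Mediator at promoters include the genes of the preinitiation complex, the general factors that assemble with polymerase II at the start site. Of 31 tested, 17 rose and 10 fell (median log2 fold change 0.55), or 15 and 15 under library size alone. Among all genes tested 38.8% rose and 40.5% fell, or 24.5% and 55.8% under library size alone. The list's median transcript length was 2334 nt, and of coding genes of 2000 to 3000 nt 43.7% rose and 34.5% fell. In TBP and the TAF subunits of TFIID 7 of 16 rose and 7 fell. TAF10 rose by 1.67 (SE 0.14) and TAF1, the largest TFIID subunit, fell to 12.3 ± 2.78 CPM in MGO, against 93.3 ± 6.46 CPM in Control libraries (log2 fold change -2.93, SE 0.13, edgeR adjusted p = 7.72e-10). Among TFIIA, TFIIB, TFIIE and TFIIF genes 6 of 7 rose and 1 fell, led by GTF2B, which places the polymerase on the promoter (1.69, SE 0.07), and GTF2A1 (-2.34, SE 0.09). In TFIIH 4 of 8 rose and 2 fell. CDK7, its kinase, changed by 1.24 (SE 0.18) at only 0.817 ± 0.122 CPM in MGO and 0.346 ± 0.0450 CPM in Control libraries, and GTF2H3 by -0.60 (SE 0.06). All 7 genes of cohesin and its loader, which Mediator meets at enhancer loops, fell, from -0.20 in MAU2 to -2.86 in SMC1A. Their median transcript length was 5064 nt, and 74.7% of coding genes of 4000 to 6000 nt fell. Of the 7 genes, 6 have median transcript lengths of over 4000 nt. RAD21, at 1754.5 nt, the median of 4 annotated transcripts of 896 to 3749 nt, changed by -0.42 (SE 0.08). At the length of its longest, among coding genes of 3000 to 4000 nt, the median was -0.39. With the length trend removed the median of the cohesin list was -0.31.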

How the data were processed

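PolyA RNA (500 ng, integrity number 10) went into stranded libraries read in 100 bp pairs, per the labels' protocols. The authors deposited raw counts for each gene and library. The submitters' processing notes list, without roles, hg38, DESeq2 1.42.0, featureCounts 2.0.6, SAMtools 1.19.2, STAR 2.7.0a, Trim Galore 0.6.10 and FastQC 0.12.0. Which annotation and strand setting were used, and how shared reads were counted, is not stated there, so values of overlapping genes are uncertain. Total counts of 117427883 to 157639431 per library leave little counting error beside the spread between libraries.

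These counts entered edgeR 4.0.16 in R 4.3.3 (filterByExpr, TMM, quasi-likelihood test, threshold 0.05 after Benjamini-Hochberg adjustment over all 23109 genes). The steps were first tested on simulated data. Calls were simulated with few changed genes, as many up as down. That cannot show how the scaling behaves where 79.3% of genes pass. SE is the absolute log2 fold change over the square root of F. Levels are CPM as mean ± SD. Alternatives were other scalings and filters, DESeq2 1.42.0, limma-voom (limma 3.58.1), glmTreat at 1.2-fold, a replicate block, leaving out each library and removal of each library's loess trend (span 0.3) on transcript length. GENCODE 29 (GRCh38, the assembly of hg38) gave coordinates and lengths for 56807 rows, all 33 members included. All members are named, and from each other list the largest rise and fall. Members, lists and motifs were chosen with earlier results of these data known. The labels do not state that replicates were separate cultures: the p-values then reflect only the spread between libraries, which may be technical. No pair of libraries within a group was a duplicate (chi-square of at least 3.51 per degree of freedom), and each counted as 1 replicate. Replicate 1 stood furthest apart in both groups. In MGO its 2 pairs had 45.75 and 50.43 per degree of freedom, against 15.37 between replicates 2 and 3. In Control these were 28.12 and 21.34, against 3.51. Deviations from the group means correlated by 0.001, -0.11 and 0.066 between libraries of the same number, so numbers were not taken as pairs.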

Additional observations from a re-analysis of the deposited data

How the results depend on the processing

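All 30 calls held under RLE scaling, no filter, the 1 CPM filter, DESeq2, limma-voom and a replicate block, which left 17 members raised and 10 lowered. Library size alone gave 11 raised and 15 lowered members (all genes 5673 and 12885), turning CCNC to -0.39, CDK8 to -0.48, MED25 to -0.20 and MED15 to -0.15. Upper quartile scaling moved the median of all genes by 0.17 and MED24 to 0.059, and CCNC and CDK8 passed there at 0.30 and 0.21. The test against 1.2-fold lost MED29 and MED25.

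With the length trend removed, 6 members fell, or 5 with a replicate block added. Values with and without that block turned sign in MED28 (1.59 and 1.60), MED13 (1.41 in both), MED13L (0.33 and 0.34), MED24 (0.32 in both), CCNC (-0.27 in both), MED25 (-0.15 in both), MED12 (0.078 in both), MED29 (0.074 and 0.077) and CDK19 (0.042 in both). The long minus short difference of -1.82 was -0.47 with the length trend removed, with or without the replicate block. It was -1.64 when divided by protein length or, an alternative chosen after the data were seen, by the longest transcript. Without the 9 members over 10% of whose exon bases overlap another gene, also chosen afterwards, it was -2.14. Leaving out single libraries gave -1.94 to -1.72, CCNC passed at 0.20 without MGO replicate 3, and CDK8 ranged from -0.033 without MGO replicate 1 to 0.081 without MGO replicate 3. Leaving out libraries moved the log2 ratio differences between -1.29 and -1.19 (CDK19 to CDK8), -1.07 and -0.97 (MED12L to MED12) and -1.27 and -1.18 (MED13L to MED13). The cause of these shifts was not tested beyond the alternatives themselves. Deep libraries leave the spread between 3 replicates as the limit on precision.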

Other observations

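Levels per kb of transcript show the members beside each other, as CPM per kb. CCNC was highest in both groups, at 102 in MGO and 93.2 in Control libraries. In MGO libraries MED27 (101), MED21 (83.2), MED8 (77.5) and MED25 (64.1) followed, and MED12L (0.870), MED13L (3.32) and CDK19 (3.85) were lowest. In Control libraries MED24 (57.3), MED29 (53.9), MED25 (50.9) and MED1 (46.3) followed CCNC, and MED26 (2.98), MED17 (3.09) and MED12L (4.44) were lowest. MED26 had rank 18 of 30 in MGO and rank 30 in Control libraries, and MED14 rank 22 in MGO and rank 8 in Control libraries. CDK8 and CDK19 had 9.49 and 3.85 CPM per kb in MGO and 9.23 and 8.88 CPM per kb in Control libraries.

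Several members share exon bases with another gene in GENCODE 29, and whether reads were lost or shared there was not tested. TXNDC17 lies opposite 70.8% of the exon bases of MED31 and had 48370 counts in MGO and 25761 in Control libraries, against 8206 and 5105 for MED31 itself. CXCL16 had 16833 counts in MGO and 23511 in Control libraries opposite MED11. Genes on the same strand cover 45.6% of MED26 and 41.9% of MED17 exon bases. Those over MED26 had 0 and 11 counts in MGO and 3 and 18 in Control libraries, and that over MED17 had none in either group. The antisense gene MED8-AS1 had 1383 counts in MGO and 505 in Control libraries, MED4-AS1 had 118 and 33, and MED14OS had 751 and 1151. Among processed copies, MED28P1 had the most counts, 49 in MGO and 47 in Control libraries.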
